A study of Rattus norvegicus with 24 samples.

Results

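The comparison described here is CuNZ@Gel against Gel in Segment 1 of day 7 skin wounds in diabetic rats, taken from a GeoMx spatial transcriptome series. GeoMx releases barcode tags from RNA probes hybridised to a tissue section, area by area, with light, and the tags are counted by sequencing. The areas were chosen by their labels: every area labelled Segment 1 whose treatment was CuNZ@Gel or Gel, which gave 8 of the 24 areas of the series, 4 per treatment. Each treatment held 2 numbered specimens with 2 regions each. The other Segment 1 areas were 4 from Sham wounds, and the remaining 12 areas were labelled Segment 2. All groups were male SD rats made diabetic by STZ (streptozotocin) at 5 weeks of age. All carried a full-thickness skin defect of 8 mm, splinted against contraction, that was harvested at day 7, so the CuNZ@Gel, Gel and Sham groups differed by treatment alone as far as the labels go. The labels give no composition for either gel and do not say what Sham wounds received. They name no fluorescent marker and leave the meaning of Segment 1, and of the "mac" in the region names, unexplained. They also do not say that specimens came from separate animals, so the p-values below concern these specimens only. The spread behind those p-values is largely pooled over targets, as described below. The series title names epigenetic reprogramming of inflammation by a nanozyme hydrogel as its subject, and the labels do not say what CuNZ@Gel holds that Gel does not.

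In healing skin, fibroblasts turn into contractile myofibroblasts, which pull the wound together and lay down a provisional matrix of fibronectin, tenascins and thrombospondins that collagen later replaces. Macrophages clear debris and move from an inflammatory to a repair state, a course that is known to be slowed in diabetes. Metallothioneins are small cysteine-rich proteins that bind zinc and copper, and their genes are switched on by metals and by glucocorticoids.

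The 4 CuNZ@Gel areas held 358592 to 831658 counts and the 4 Gel areas 322155 to 873471, against 490586 to 1476512 in Sham. Values are scaled signal as deposited, with a 75th percentile of 12.3 in every Segment 1 area. Background was taken from 1116 receptor targets for odours and pheromones, sensory genes taken here as silent in skin. Their 99th percentile lay at 12.3 to 13.8 in CuNZ@Gel areas and 11.4 to 15.0 in Gel areas. A target is called above background here when it exceeded that level in at least 4 of the 12 Segment 1 areas, which 5294 targets did. A target can pass that rule through 1 treatment alone. Of 20 keratinocyte markers only 1 was above background in these skin areas, with summed values of 99.8 to 106.5 in CuNZ@Gel and 90.6 to 123 in Gel. Of 20 macrophage markers 9 were above background, among them Cd68, Csf1r and C1qa, but not Adgre1 or Itgam. Of 17 fibroblast markers measured 11 were, among them Pdgfra, Thy1 and Lum. None of 19 neutrophil markers was.

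Among called targets Tnn, a tenascin gene, had the largest rise in CuNZ@Gel and C1qb, a complement gene, the largest fall, and Mt1, Mt2 and Prg4 were also among the 12 largest falls named here. Of 18522 targets tested with limma on specimen means of log2(signal + 1), 106 were called higher (0.572%) and 43 lower (0.232%), 149 in all (0.804%), at an adjusted p below 0.05. Of these 136 were above background. The 7 lists of matrix and contractile genes, with 101 genes tested, held 19 of the 106 higher calls (17.9%) and 2 of the lower ones. Lists were chosen with earlier results of these data known, so this share is a description and was not tested. The shares over all 18522 targets are the ones to set beside the count of calls on any list or family below. Over all 18522 targets the median log2 change was 0.04, and over the 5294 above background it was 0.0078. List medians below cover all genes tested, those not above background included, unless stated otherwise. All 4 CuNZ@Gel areas lay above all 4 Gel areas in 212 of the 5294 (4%) and below them in 144 (2.72%). Among the called targets the areas were apart in this way for 110, 78 higher and 32 lower. With 2 specimens a side an exact permutation test cannot give a p under 0.333, so the calls rest on a spread that limma pools over targets. Without trend and robust, limma called 15: Tnn, C1qtnf3, Ms4a4a, Rpn2, Rap1a, Tagln, Fbn2, Col12a1, Rasl11b and Thbs2 higher, and C1qb, Prg4, Mt2, Mt1 and 2310022A10Rik lower.

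**Figure D1:**
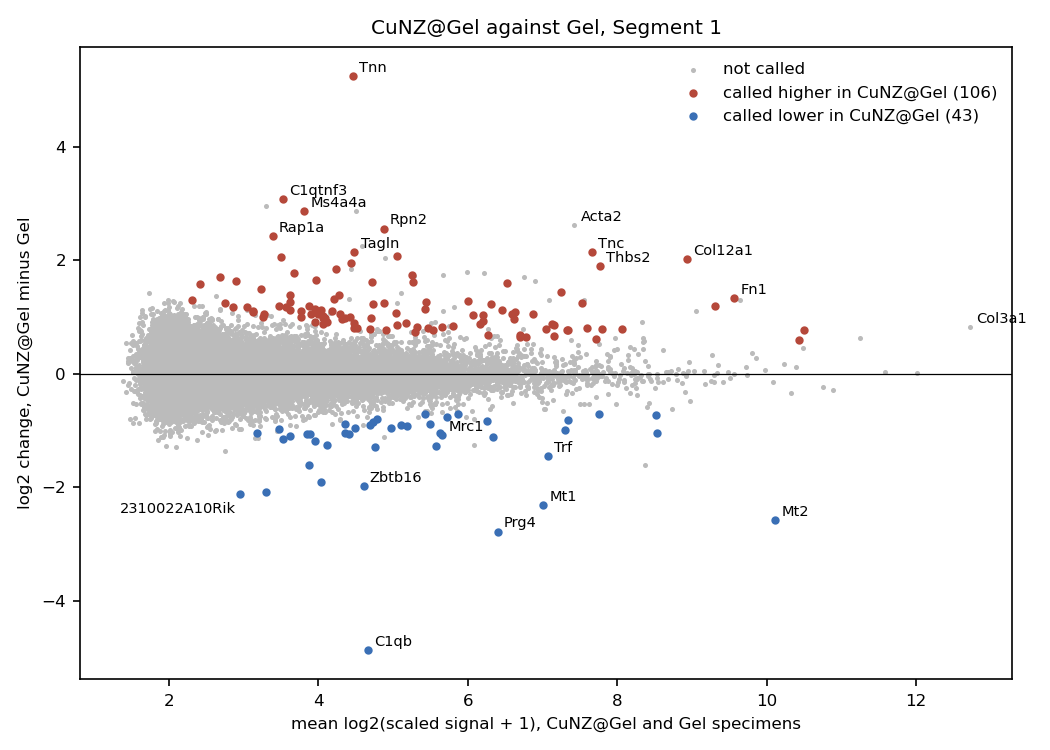
Each point is 1 of 18522 targets in Segment 1, with the mean log2(scaled signal + 1) over the CuNZ@Gel and Gel specimens on the x axis and the log2 change, CuNZ@Gel minus Gel, on the y axis. The 106 targets called higher by limma (red) and the 43 called lower (blue) include Tnn at the top, with a log2 change of 5.25, and C1qb at the bottom, with -4.87.

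Among 18 genes of matrix glycoproteins tested, 6 were called higher in CuNZ@Gel and 0 lower, against 0.572% and 0.232% over all targets. The median log2 change was 1.10, against 0.04 over all targets. These areas are bulk samples of small regions, so more cells of a type and more RNA per cell cannot be told apart here or below. In the values that follow, each group's areas stand in the order specimen 1 regions 1 and 2, then specimen 2 regions 1 and 2.

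Tnn encodes tenascin-N, a matrix glycoprotein. It read 125, 92.6, 169.8 and 170.2 in the CuNZ@Gel areas, against 1.89, 2.73, 3.38 and 2.45 in the Gel areas. Every Gel area lay below background and close to the negative probe (2.64 to 3.85 in Gel areas), while every CuNZ@Gel area was far above it. Sham areas lay between, at 11.5, 11.5, 23.6 and 37.1. The specimen means were 139 ± 44.1 in CuNZ@Gel and 2.58 ± 0.432 in Gel (SD, n = 2 each), a log2 change of 5.25 (SE 0.45, adjusted p = 0.00597). The log2 change was 5.13 without Gel specimen 1 and 5.38 without Gel specimen 2, where the test no longer passed (adjusted p = 0.386 and 0.313 in limma).

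Thbs2 encodes thrombospondin 2, a matricellular protein that binds other matrix and cell surface proteins. Its areas read 413, 421, 403 and 449.9 in CuNZ@Gel, against 47.2, 189, 145 and 121 in Gel, with no overlap and a much wider spread in Gel. The log2 change of 1.90 (SE 0.17, adjusted p = 2.0e-13) was lost when Gel specimen 1 region 2 was left out, where it stood at 2.40 with adjusted p = 0.294, and with areas as samples and the specimen as a random block (adjusted p = 0.0906). Fn1, which encodes fibronectin, the protein cells grip while they crawl into a wound, read 1216, 1312, 1093 and 1211 in CuNZ@Gel, against 324, 580.5, 783 and 348 in Gel. The lowest CuNZ@Gel area was above the highest Gel area, and the log2 change was 1.34 (SE 0.16, adjusted p = 5.3e-09). That call was lost too with areas as samples (adjusted p = 0.0664). Sham areas of Fn1, at 1015 to 1767, covered the CuNZ@Gel range.

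The CCN genes encode secreted matricellular regulators. Ccn2, known as connective tissue growth factor and as a target of TGF-beta and YAP signalling, read 20.8, 17.8, 21.7 and 32.2 in CuNZ@Gel areas, against 7.55, 6.13, 8.04 and 3.07 in Gel areas. All Gel areas were below background, and the log2 change was 1.78 (SE 0.25, adjusted p = 1.2e-06). Ccn4 was also called, with a log2 change of 1.12 (adjusted p = 2.1e-05), but its areas overlapped, at 119, 140.4, 144 and 114 in CuNZ@Gel and 39.6, 102, 136 and 20.8 in Gel. Tnc, which encodes tenascin-C, a glycoprotein of the provisional matrix, overlapped as well. It read 401, 423, 410.4 and 467 in CuNZ@Gel areas, against 39.6, 433, 690.2 and 6.13 in Gel areas. One region of each Gel specimen matched or passed the CuNZ@Gel level and the other was far below it. The log2 change of Tnc was 2.14 (adjusted p = 5.2e-04) on the mean of log2 values and 0.57 (adjusted p = 0.893) on the mean of linear values, and the call was lost under 12 of 28 alternatives. Leaving out 1 Gel area at a time gave log2 changes without a call of 1.29 for Tnc without specimen 1 region 1, 3.79 without specimen 2 region 1 and 0.49 without specimen 2 region 2. The same 3 omissions ended the call of Ccn4, with log2 changes of 0.79, 1.79 and 0.46. Ccn3, chosen after its values were seen, was not called in the limma fit but was under 10 of 28 alternatives. Among these were edgeR (1.58, adjusted p = 1.4e-05) and limma on region 1 areas (1.85, adjusted p = 3.9e-05).

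Postn and Spp1, also on the list, were not called. Postn, which encodes periostin, read 197, 171, 232 and 247 in CuNZ@Gel areas, against 46.2, 42.2, 95.2 and 107 in Gel areas, apart in all areas (log2 change 1.64, adjusted p = 0.718). In region 1 areas alone it was called (1.67, adjusted p = 4.1e-06). Spp1, the osteopontin gene, read 142, 6.13, 8.49 and 55.95 in CuNZ@Gel and 1.89, 1.36, 3.81 and 3.68 in Gel (log2 change 2.95, adjusted p = 0.831). It passed with either Sham specimen left out (adjusted p = 3.1e-12 and 1.9e-11) and in DESeq2 (log2 change 4.45, adjusted p = 0.0200). Within each CuNZ@Gel specimen 1 region of Spp1 was far above the other. Postn and Spp1 were chosen after their values were seen.

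**Figure D2:**
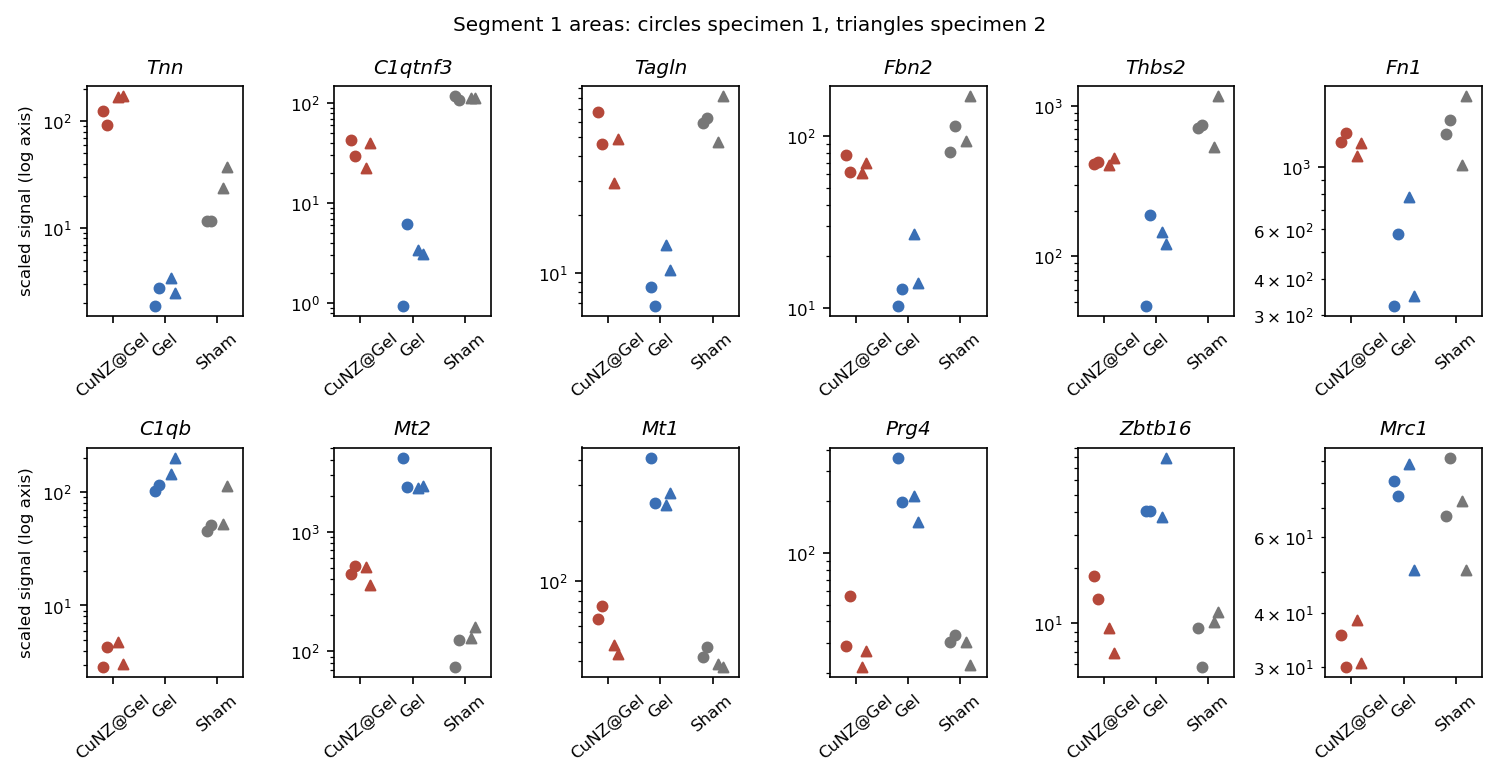
Scaled signal on a log axis in each of the 4 CuNZ@Gel (red), 4 Gel (blue) and 4 Sham (grey) areas of Segment 1, with circles for specimen 1 and triangles for specimen 2, for 12 called genes. The CuNZ@Gel points lie above all Gel points for Tnn, C1qtnf3, Tagln, Fbn2, Thbs2 and Fn1 and below them for C1qb, Mt2, Mt1, Prg4, Zbtb16 and Mrc1.

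Of 13 contractile and myofibroblast genes tested, 3 were called higher (Tagln, Tpm1 and Cald1) and 0 lower, with a median log2 change of 0.47. The 7 above background were all positive, with a median of 1.64. Over all targets 0.572% were called higher. Tagln encodes transgelin (SM22), an actin-binding protein of smooth muscle and myofibroblasts. It read 67.5, 45.99, 29.2 and 49.1 in CuNZ@Gel areas, against 8.49, 6.81, 13.96 and 10.4 in Gel areas and 59.2, 62.8, 47.1 and 81.3 in Sham areas. The CuNZ@Gel and Gel areas did not overlap, while CuNZ@Gel and Sham did. The means were 46.8 ± 12.6 in CuNZ@Gel and 9.84 ± 3.15 in Gel (SD, n = 2 each), a log2 change of 2.15 (SE 0.21, adjusted p = 4.1e-11) that was called under all 28 alternatives. Tpm1, a tropomyosin gene, read 148, 126, 101 and 109.6 in CuNZ@Gel, against 33.96, 42.9, 90.9 and 49.7 in Gel (log2 change 1.22, adjusted p = 3.2e-04), and Cald1, which encodes the actin regulator caldesmon, had a log2 change of 0.97 (adjusted p = 0.00134). Without Gel specimen 2 region 2 neither call held, with log2 changes of 1.01 for Tpm1 and 0.79 for Cald1. The Cald1 call also ended without CuNZ@Gel specimen 1 (log2 change 0.92), CuNZ@Gel specimen 2 (1.03) or Gel specimen 1 (0.67). Tpm2, chosen after its values were seen, was not called in the limma fit. It was called under 6 of 28 alternatives, edgeR among them (1.44, adjusted p = 0.00250).

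Acta2, the smooth muscle actin gene that defines the myofibroblast, was apart in every area but did not pass. It read 567, 428, 356 and 380.2 in CuNZ@Gel areas, against 33.96, 33.4, 146 and 129 in Gel areas. The Gel specimens differed widely from each other, and the log2 change of 2.62 carried an SE of 0.80 (adjusted p = 0.631 in limma). With Gel specimen 1 left out the change was 1.63 (adjusted p = 2.0e-09) and with Gel specimen 2 left out 3.62 (adjusted p = 3.6e-20), fits in which the lone Gel specimen is assumed to vary like the other groups. Summed over this list, which also holds Postn, the signal was 1000.0 to 1316 in CuNZ@Gel areas, 221 to 566 in Gel areas and 1106 to 1529 in Sham areas. Acta2 and Postn, neither of them called, are part of these sums.

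Among 15 collagen genes, Col12a1 and Col5a1 were called higher and Col8a1 lower, with a median log2 change of 0.45. Col12a1 encodes a fibril-associated collagen of stretched tissue. It read 988, 922, 985 and 1030.2 in CuNZ@Gel areas, against 143, 456, 539 and 95.05 in Gel areas, and the CuNZ@Gel areas were alike while the Gel areas spread widely within each specimen. The specimen means were 981 ± 37.1 in CuNZ@Gel and 241 ± 20.6 in Gel (SD, n = 2 each), a log2 change of 2.02 (SE 0.15, adjusted p = 1.7e-15). The call did not hold without Gel specimen 1 region 1 (log2 change 1.61, adjusted p = 0.454) or without Gel specimen 2 region 1 (2.64, adjusted p = 0.468). Nor did it hold in region 1 areas alone (adjusted p = 0.569), in region 2 areas alone (0.857) or with areas as samples (0.208). Col5a1, whose collagen starts new fibrils, read 961, 912, 958 and 988 in CuNZ@Gel and 295, 403, 689 and 372 in Gel, with a log2 change of 1.19 (adjusted p = 3.7e-06) and no overlap. Its call was lost without Gel specimen 2 region 2 (log2 change 0.97) and with areas as samples (adjusted p = 0.159). Of the main fibrillar collagen genes, Col1a1 read 274 to 319.6 in CuNZ@Gel areas and 86.8 to 166 in Gel areas (log2 change 1.30, adjusted p = 0.387), with no overlap. It was called under 7 of 28 alternatives: at the same log2 change with either Sham specimen left out (adjusted p = 1.2e-06 and 1.9e-06) or both (8.6e-07), and in edgeR at 1.20 (0.00229), among others. Col1a2, chosen after its values were seen, was not called in the limma fit but was under 13 of 28 alternatives. Its log2 change was 1.30 with either Sham specimen left out and 1.17 in edgeR (adjusted p = 0.00106). Col3a1 read 8309 to 9469.8 in CuNZ@Gel and 3215 to 9164 in Gel (0.82, adjusted p = 0.831). Col8a1, a short-chain collagen gene of vessels and wounds, had a log2 change of -0.84 (adjusted p = 0.00386) with overlapping areas, and its call was lost under 8 of 28 alternatives.

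Enzymes that modify and cross-link collagen were called higher in 5 of 17 tested and lower in 0, with a median log2 change of 0.33. Over all targets 0.572% were called higher. Plod2, the lysyl hydroxylase of the collagen telopeptide, read 80.5, 93.8, 131 and 95.05 in CuNZ@Gel areas, against 33.96, 55.9, 96.8 and 13.5 in Gel areas (log2 change 1.28, adjusted p = 2.6e-06). Gel specimen 2 region 1 reached the CuNZ@Gel level and region 2 of the same specimen was the lowest. The prolyl hydroxylase gene P4ha1 (0.87, adjusted p = 0.00190) had no overlap between areas, at 79.7 to 106 in CuNZ@Gel and 32.5 to 76.5 in Gel. Lox (0.80, adjusted p = 0.00306) and Loxl2 (1.04, adjusted p = 0.0106), which encode lysyl oxidases that cross-link fibrils, overlapped. The chaperone gene Serpinh1 was the fifth (0.68, adjusted p = 0.0458), named to complete the count. Each of the first 4 calls was lost without Gel specimen 2 region 2, where the log2 changes were 0.59 for Plod2, 0.57 for P4ha1, 0.33 for Lox and 0.80 for Loxl2. Further omissions of a specimen or an area ended the calls of Plod2, P4ha1, Lox and Loxl2 too, and in all these were lost under 7, 6, 13 and 10 of 28 alternatives.

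Of 13 elastic fibre and microfibril genes tested, Fbn2 and Mfap5 were called higher and Efemp1 lower. Fbn2 encodes fibrillin-2, a microfibril protein best known from developing tissue. It read 77.3, 61.9, 61.3 and 69.8 in CuNZ@Gel areas, against 10.4, 12.9, 27.1 and 14.1 in Gel areas, with a log2 change of 2.08 (SE 0.20, adjusted p = 6.0e-11) that held under all 28 alternatives. Mfap5, a microfibril-associated protein gene, read 261, 236, 244 and 252 in CuNZ@Gel and 101, 52.5, 105 and 121 in Gel, a log2 change of 1.44 (adjusted p = 1.2e-05), lost without Gel specimen 1 region 1 (where it was 1.68). Efemp1 (-0.98, adjusted p = 0.0485) was not above background by the rule used here and lost its call under 18 of the 27 alternatives that tested it. The elastin gene Eln had a log2 change of -0.45 (adjusted p = 0.660). Among 10 small leucine-rich proteoglycan genes none was called in the limma fit. Their median log2 change was 0.29, and that of the 4 above background, all 4 positive, was 1.17. With both Sham specimens left out, limma called the proteoglycan genes Aspn (1.84, adjusted p = 1.1e-08) and Fmod (1.24, 3.9e-05) higher. It called Prelp lower there (-1.13, adjusted p = 0.0289). Bgn, the biglycan gene, read 714 to 802 in CuNZ@Gel areas and 242 to 532 in Gel areas (1.10, adjusted p = 0.166), and was called under 8 of 28 alternatives, edgeR among them (0.98, adjusted p = 0.00822). Lum read 1194 to 1388 in CuNZ@Gel areas and 948 to 1336 in Gel areas (0.17, adjusted p = 0.891). Eln, Aspn, Fmod, Prelp, Bgn and Lum were chosen after their values were seen.

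Of 16 fibroblast markers tested, 2 were called higher, Mfap5 and C1qtnf3, and the median log2 change was 0.13. Pdgfra read 33.7 to 44.3 in CuNZ@Gel areas and 29.2 to 53.3 in Gel areas (-0.06), Prrx1 147 to 193 and 131 to 231 (-0.00), and Thy1 116 to 187 and 83.02 to 215 (0.22), none called. These 3 were chosen after their values were seen. C1qtnf3 encodes CTRP3, a secreted protein of the C1q and TNF related family. It read 42.5, 29.4, 22.6 and 39.9 in CuNZ@Gel areas, against 0.943, 6.13, 3.38 and 3.07 in Gel areas and 108 to 117 in Sham areas. Every Gel area was below background, and 1 of them, specimen 1 region 1, stood at a single count. The means were 32.7 ± 3.76 in CuNZ@Gel and 2.97 ± 0.353 in Gel (SD, n = 2 each), a log2 change of 3.08 (SE 0.20, adjusted p = 3.3e-18), called under all 28 alternatives.

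Of 23 wound growth factor and receptor genes tested, Mdk, Wnt5a and Tgfbr1 were called higher and 0 lower, with a median log2 change of 0.12. Mdk, which encodes the heparin-binding growth factor midkine, read 36.4, 58.9, 40.6 and 43.7 in CuNZ@Gel areas, against 12.3, 19.1, 22.4 and 20.2 in Gel areas (1.24, adjusted p = 6.7e-06). Wnt5a, a ligand of non-canonical Wnt signalling, read 61.3, 63.8, 71.7 and 68.99 in CuNZ@Gel and 12.3, 45.6, 56.2 and 16.6 in Gel (1.26, adjusted p = 3.4e-05). Both genes had all CuNZ@Gel areas above all Gel areas. The Wnt5a call was lost without Gel specimen 1 region 1 (log2 change 0.81), specimen 1 region 2 (1.72) or specimen 2 region 2 (0.84). Tgfbr1, the type I TGF-beta receptor gene, had a log2 change of 0.66 (adjusted p = 0.0354), lost under 13 of 28 alternatives. The ligand gene Tgfb1 read 126, 126, 124 and 126 in CuNZ@Gel and 89.6, 125, 165 and 130.0 in Gel (0.01, SE 0.18), and Vegfa had a log2 change of -0.19 (SE 0.25), neither called. Of 16 matrix protease and inhibitor genes tested, 1 was called, Adam12 (0.78, adjusted p = 0.00344), with overlapping areas and a call lost under 11 of 28 alternatives.

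**Figure D3:**
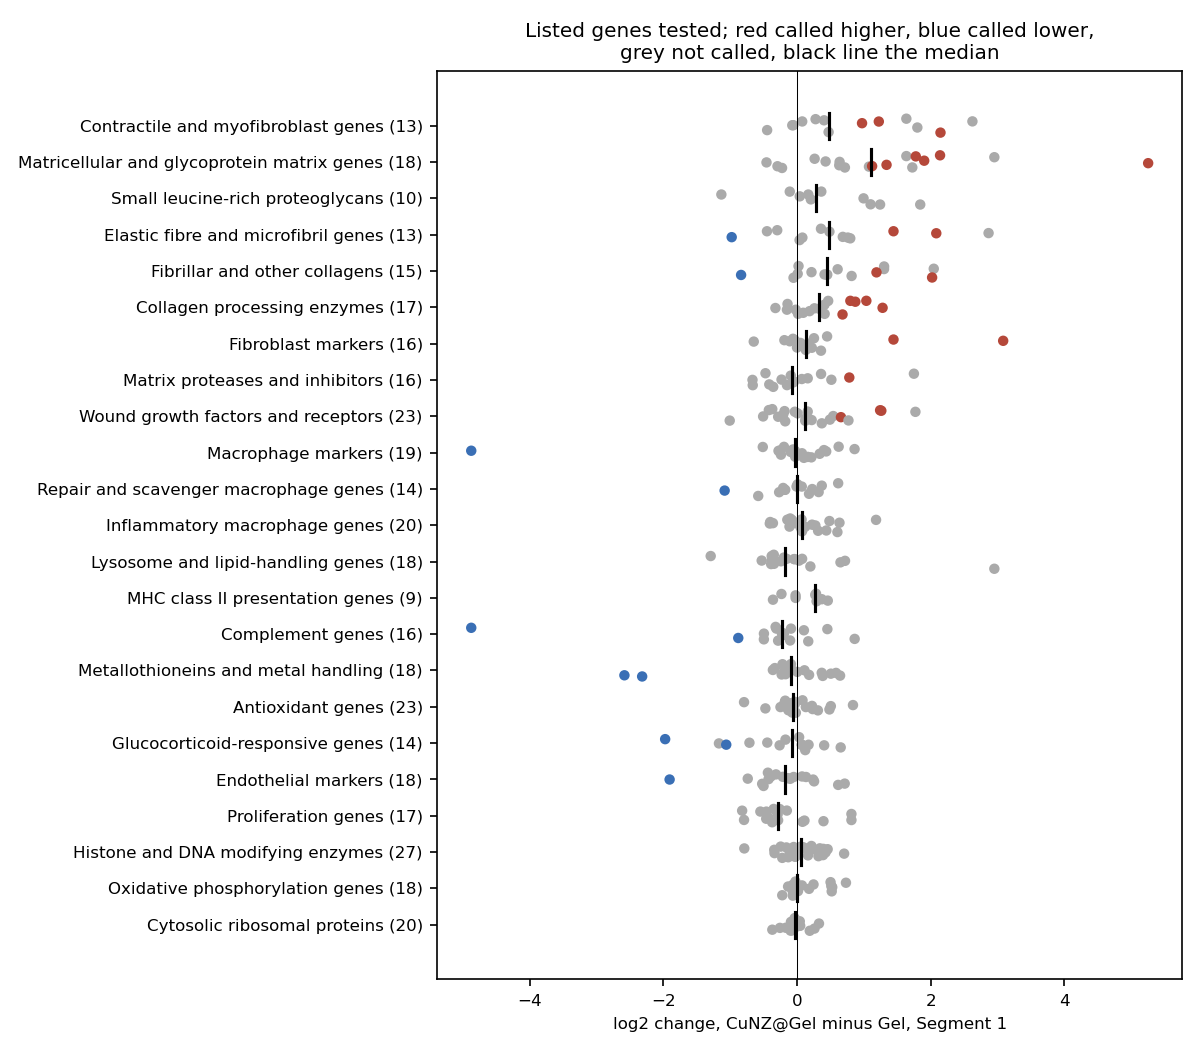
Log2 change, CuNZ@Gel minus Gel, of all listed genes tested in Segment 1, 1 row per list with the number of genes shown in brackets. Red points were called higher by limma, blue points lower and grey points neither. The black line is the list's median, which is 0.47 for contractile and myofibroblast genes, 1.10 for matricellular genes and 0.13 for fibroblast markers.

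The metallothionein genes Mt1 and Mt2 were lower in CuNZ@Gel than in Gel, and Gel stood above Sham. Mt2 read 437, 518, 509 and 360.3 in CuNZ@Gel areas, against 4130.2, 2371, 2298 and 2396 in Gel areas and 73.6, 124, 128 and 159.8 in Sham areas. No CuNZ@Gel area overlapped a Gel area, and no Sham area overlapped either. The specimen means were 452 ± 33.5 in CuNZ@Gel, 2738 ± 554 in Gel and 119 ± 33.6 in Sham (SD, n = 2 each), and the log2 change of -2.58 (SE 0.17, adjusted p = 1.5e-15) was lost under quantile normalization alone (log2 change -2.76, adjusted p = 0.249). Mt1 read 64.6, 75.4, 48.1 and 43.7 in CuNZ@Gel areas, against 410.4, 246, 240.2 and 276 in Gel areas and 41.8, 46.9, 38.7 and 37.5 in Sham areas, a log2 change of -2.32 (SE 0.18, adjusted p = 1.7e-14) that held under all 28 alternatives. Both genes were highest in Gel specimen 1 region 1. Of the 18 metal-handling genes tested, no other was called, and the median log2 change was -0.09. Mtf1, which encodes the zinc-sensing factor that acts on metallothionein promoters, read 17.6 to 25.1 in CuNZ@Gel areas and 16.04 to 26.6 in Gel areas (0.00). The zinc importer gene Slc39a14 (0.18), the copper chaperone gene Atox1 (0.37) and the ceruloplasmin gene Cp (-0.36) did not pass. Mtf1, Slc39a14, Atox1 and Cp were chosen after their values were seen.

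The promoters of these genes are shown because their metal response elements are textbook sites of control. Both come from RefSeq (GRCr8), from 250 bases before to 50 after the start, on the minus strand of chromosome 19. They lie at chr19:10832926-10833225 for Mt1 and chr19:10838659-10838958 for the rat gene Mt2A. The target named Mt2 was matched to Mt2A through a synonym. Capitals mark matches to the core motif TGCACNC or TGCGCNC on either strand.
Mt1: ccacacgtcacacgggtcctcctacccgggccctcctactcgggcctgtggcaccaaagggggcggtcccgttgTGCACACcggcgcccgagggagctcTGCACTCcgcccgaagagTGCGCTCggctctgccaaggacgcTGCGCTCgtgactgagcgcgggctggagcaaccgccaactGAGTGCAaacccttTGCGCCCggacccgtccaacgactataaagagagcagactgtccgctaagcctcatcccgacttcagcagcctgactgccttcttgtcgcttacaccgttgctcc
Mt2A: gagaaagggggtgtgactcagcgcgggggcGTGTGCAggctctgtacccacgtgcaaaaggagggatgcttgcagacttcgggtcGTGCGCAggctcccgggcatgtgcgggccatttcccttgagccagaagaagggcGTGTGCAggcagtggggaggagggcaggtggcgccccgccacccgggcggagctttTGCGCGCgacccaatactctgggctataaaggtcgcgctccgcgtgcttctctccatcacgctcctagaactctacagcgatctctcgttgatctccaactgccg
The Mt1 promoter held 6 matches and that of Mt2A 4. Among 33469 promoters of this length, 24.2% held at least 1, 0.439% at least 4, 0.123% at least 5 and 0.0388% at least 6. Of the 46 named genes that were called, 30 had a promoter in the table and 11 of those (36.7%) held a match, 7 of them called higher and 4 lower. Plod2, which was called higher, held 5, more than Mt2A, while Col5a1 held 2 and the 7 others 1 each. A match is a description of these letters and not a site of binding. The annotation holds 7 symbols of the Mt1 and Mt2A kind, of which 4 are pseudogenes, so probes could share signal between near-identical copies.

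Of 19 macrophage markers tested, 1 was called lower, and the median log2 change was -0.03. That gene was C1qb, which encodes the B chain of complement C1q, made in skin mainly by macrophages. It read 2.86, 4.29, 4.72 and 3.07 in CuNZ@Gel areas, against 102, 115, 145 and 201 in Gel areas and 45.5, 51.2, 52.7 and 114 in Sham areas. Every CuNZ@Gel area was below background and every Gel and Sham area far above it. The means were 3.67 ± 0.213 in CuNZ@Gel and 139 ± 44.01 in Gel (SD, n = 2 each), a log2 change of -4.87 (SE 0.22, adjusted p = 2.5e-19), called under all 28 alternatives. The genes of the A and C chains of the same protein were not called. C1qa read 55.6, 62.5, 33.02 and 72.8 in CuNZ@Gel and 42.5, 55.9, 44.4 and 59.5 in Gel (0.10, adjusted p = 0.969), and C1qc 219.5, 199, 129 and 214 in CuNZ@Gel and 169.8, 191, 189.9 and 337 in Gel (-0.20, adjusted p = 0.980). Whether the C1qb probe reads the RNA of both groups alike was not tested.

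Cd68, a lysosomal protein gene of macrophages, read 181, 182, 175 and 228 in CuNZ@Gel areas, against 162, 218, 225 and 177 in Gel areas (-0.03, SE 0.18). Lyz2, the lysozyme gene, was apart in all areas, at 307, 351, 280.2 and 306 in CuNZ@Gel and 208, 156, 195 and 257 in Gel, and did not pass (0.62, adjusted p = 0.0648). It passed under 6 of 28 alternatives, with adjusted p between 0.00723 and 0.0481. Of 14 repair macrophage genes tested, Mrc1 was called lower. Mrc1 encodes the mannose receptor CD206, and read 35.6, 30.05, 38.7 and 30.7 in CuNZ@Gel areas, against 81.1, 74.9, 88.8 and 50.3 in Gel areas, without overlap (-1.08, SE 0.18, adjusted p = 7.2e-05). The Mrc1 call was lost without Gel specimen 2 region 1 (log2 change -0.88, adjusted p = 0.0663). Arg1, the arginase gene linked to repair macrophages, read 42.5, 47.2, 70.8 and 58.3 in CuNZ@Gel and 33.96, 189, 245 and 10.4 in Gel, where Gel values ranged far above and far below those of CuNZ@Gel (-0.27, adjusted p = 0.964). On the recovered counts, summed per specimen, edgeR called Arg1 lower in CuNZ@Gel (log2 change -1.40, adjusted p = 0.00365). Of 20 inflammatory macrophage genes tested, limma called 0, and the median log2 change was 0.07. Only 5 of them were above background. Nos2, Tnf, Il1b and Il6 were not. Their log2 changes were 0.64 (SE 0.37), -0.41 (SE 0.32), 0.49 (SE 0.33) and 0.60 (SE 0.30), and these 4 were chosen after their values were seen.

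Complement genes held 2 calls in 16 tested, C1qb and Clu, the clusterin gene, whose change of -0.88 (adjusted p = 0.0432) was lost under 15 of 28 alternatives. C3 varied widely between areas, at 143, 150.2, 64.2 and 117 in CuNZ@Gel and 159, 80.4, 73.6 and 402 in Gel (-0.31, adjusted p = 0.972). Of 9 MHC class II genes tested 0 were called. H2-Ab1 lay at background in both gels, at 2.45 to 6.90 in CuNZ@Gel areas and 2.73 to 3.77 in Gel areas, and at 118 to 272 in Sham areas. Its partner gene Cd74, the invariant chain, was high in all 3 groups, at 87.7 to 134 in CuNZ@Gel, 53.8 to 283 in Gel and 56.3 to 175 in Sham.

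The histone and DNA modifying enzymes bear on the epigenetic subject named in the title. Of 27 tested, limma called 0 in either direction. The median log2 change was 0.06. Their summed signal was 795 to 875 in CuNZ@Gel areas, against 748 to 899 in Gel areas. Of 23 antioxidant genes tested, 0 were called as well, with a median log2 change of -0.05. Sod2, the mitochondrial superoxide dismutase gene, read 796 to 898 in CuNZ@Gel areas and 513 to 1121 in Gel areas (-0.02), and Cat, the catalase gene, 29.2 to 39.9 and 34.1 to 49.7 (-0.18). Both were chosen after their values were seen. Likewise 0 were called among 18 oxidative phosphorylation genes (median -0.0021), 20 cytosolic ribosomal protein genes (-0.03), 17 unfolded protein response genes (0.22) and 17 proliferation genes (-0.29). Of the 6 proliferation genes above background 0 were positive, and their median was -0.44. A gene that missed the threshold with 2 specimens a side is not shown to be alike in both gels.

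Of 14 genes known to respond to glucocorticoids, Zbtb16 and Per1 were called lower, against 0.232% over all targets. The median log2 change of the 14 was -0.07, and that of the 6 above background, 2 of them positive, was -0.58. Zbtb16, which encodes the transcriptional repressor PLZF, read 17.99, 13.5, 9.43 and 6.90 in CuNZ@Gel areas, against 40.6, 40.9, 37.6 and 79.1 in Gel areas and 9.38, 5.77, 10.1 and 11.6 in Sham areas (-1.97, SE 0.25, adjusted p = 1.2e-06). Per1, a circadian clock gene, read 11.04, 17.8, 13.2 and 13.8 in CuNZ@Gel and 28.3, 29.3, 27.1 and 34.95 in Gel (-1.06, adjusted p = 0.00126), lost without CuNZ@Gel specimen 2 (log2 change -1.03). Both had CuNZ@Gel areas all below Gel areas. Tsc22d3, the list's gene for the leucine zipper protein GILZ, did not pass (-0.44, adjusted p = 0.614), and nor did Dusp1 (-0.71, adjusted p = 0.0648), which was apart in all areas and passed under 4 of 28 alternatives. Tsc22d3 and Dusp1 were chosen after their values were seen.

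Prg4 encodes lubricin, a lubricating proteoglycan of joints and tissue surfaces. It read 28.6, 56.4, 21.7 and 26.8 in CuNZ@Gel areas, against 358, 199.6, 215 and 153 in Gel areas and 30.3, 33.2, 30.3 and 22.4 in Sham areas. CuNZ@Gel and Sham areas overlapped and Gel stood above both, with specimen means of 32.2 ± 11.4 in CuNZ@Gel and 224 ± 60.99 in Gel (SD, n = 2 each). The log2 change of -2.78 (SE 0.21, adjusted p = 1.3e-10) was lost without CuNZ@Gel specimen 1 region 1 (log2 change -2.54, adjusted p = 0.112) and under quantile normalization. Trf, the transferrin gene, was the call among 12 iron-handling genes tested. It read 74.4, 102, 75.5 and 72.8 in CuNZ@Gel and 219.8, 243, 228 and 195 in Gel (-1.44, adjusted p = 7.2e-04). The Trf call ended without Gel specimen 1 (log2 change -1.38) or Gel specimen 2 (-1.51). It also ended under quantile normalization and under centring on the median, and in all under 6 of 28 alternatives. Gja5, the connexin 40 gene of arterial endothelium, was the call among 18 endothelial markers tested. It read 10.6, 9.81, 15.1 and 1.53 in CuNZ@Gel and 40.6, 40.2, 43.6 and 12.3 in Gel (-1.91, adjusted p = 4.7e-06), with 1 low Gel area inside the CuNZ@Gel range. Without CuNZ@Gel specimen 2 region 1 its log2 change was -2.57 and without Gel specimen 2 region 1 it was -1.47, both without a call.

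Several of the largest changes fell outside these lists or stood alone in one. Rpn2 encodes ribophorin II, a subunit of the oligosaccharyltransferase that adds sugars to new proteins. It read 64.6, 68.1, 81.1 and 68.2 in CuNZ@Gel areas, against 14.2, 8.18, 10.6 and 12.3 in Gel areas and 10.1, 12.99, 9.62 and 11.2 in Sham areas, a log2 change of 2.56 (SE 0.21, adjusted p = 1.7e-14). Gel and Sham overlapped and CuNZ@Gel stood above both. It was the sole call among 13 oligosaccharyltransferase and translocon genes tested, whose median log2 change was 0.13. Rap1a, a small GTPase gene of cell adhesion, showed the same order, at 19.2, 17.2, 27.4 and 32.2 in CuNZ@Gel areas, 1.89, 4.77, 5.07 and 3.07 in Gel areas and 2.16, 2.89, 2.40 and 4.56 in Sham areas (2.43, adjusted p = 2.2e-08). Every Gel and Sham area of Rap1a was below background. Ms4a4a, a membrane protein gene of macrophages in human, read 31.5, 33.7, 48.1 and 36.03 in CuNZ@Gel and 5.66, 7.49, 2.11 and 3.07 in Gel (2.87, adjusted p = 0.00204). Its call was lost without Gel specimen 1 region 1 (log2 change 2.78) and under centring on the median (2.87). Spib, which encodes an ETS family transcription factor of B cells and dendritic cells, read 15.5, 15.3, 22.6 and 43.7 in CuNZ@Gel and 4.72, 4.77, 3.38 and 5.52 in Gel (2.06, adjusted p = 4.0e-06). Summed B and plasma cell markers were 70.8 to 93.5 in CuNZ@Gel areas and 60.1 to 199 in Gel areas, with 2 of 12 above background, and their part in the Spib value was not tested. Rasl11b, a small GTPase gene, read 39.7, 42.9, 42.5 and 41.4 in CuNZ@Gel and 7.55, 9.54, 13.5 and 10.4 in Gel (1.95, adjusted p = 2.5e-10). Rpn2, Rap1a and Rasl11b were called under all 28 alternatives.

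Among the falls, 2310022A10Rik, a transcript with a provisional name, read 3.27, 4.29, 3.77 and 3.83 in CuNZ@Gel areas, against 23.6, 18.4, 17.8 and 17.8 in Gel areas and 17.9 to 25.2 in Sham areas. Here Gel and Sham overlapped and CuNZ@Gel stood below both, under background (-2.08, adjusted p = 5.7e-09, called under all 28 alternatives). Scara3, a scavenger receptor gene, showed the same order (-1.60, adjusted p = 6.5e-07), at 5.37 to 9.43 in CuNZ@Gel, 18.4 to 35.6 in Gel and 22.1 to 28.9 in Sham. The other falls among the largest 12 were Vwa5a (-1.29), Rasd1, a steroid-inducible Ras-like gene (-1.27), Fst, which encodes the activin antagonist follistatin (-1.25), and Enc1 (-1.11). For these 4 genes the Gel mean stood above the Sham mean, and the CuNZ@Gel areas were 13.2 to 22.1, 22.2 to 39.6, 8.49 to 12.3 and 46.6 to 64.2, against 31.3 to 51.9, 29.4 to 109, 19.01 to 35.8 and 109 to 127 in Gel areas. Rasd1 overlapped through Gel specimen 2 region 2, and its call was lost without Gel specimen 2 region 1 (log2 change -0.81). The Fst call was lost without Gel specimen 1 (log2 change -1.02).

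The Gel areas were less alike than the CuNZ@Gel areas. Over the 5294 targets above background, the median range across a group's 4 areas was 0.47 log2 units in CuNZ@Gel, 0.64 in Gel and 0.49 in Sham. The range passed 2 log2 units for 12 targets in CuNZ@Gel (0.227%), 59 in Gel (1.11%) and 21 in Sham (0.397%). Across targets, pairs of areas correlated at r = 0.938 to 0.961 in CuNZ@Gel and 0.888 to 0.947 in Gel, where targets are not independent replicates. In Gel the most alike pair was specimen 1 region 2 with specimen 2 region 1, from different specimens. For Tnc, Arg1, Plod2, Wnt5a, Ccn4, Lox and Adam12, specimen 1 region 1 and specimen 2 region 2 of Gel were the 2 lowest of the 4 areas, as for Col12a1. Tagln and Acta2 did not show that order, and differed between the Gel specimens instead. The labels give both regions the same short name, so where in the wound each lay is not known here.

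**Figure D4:**
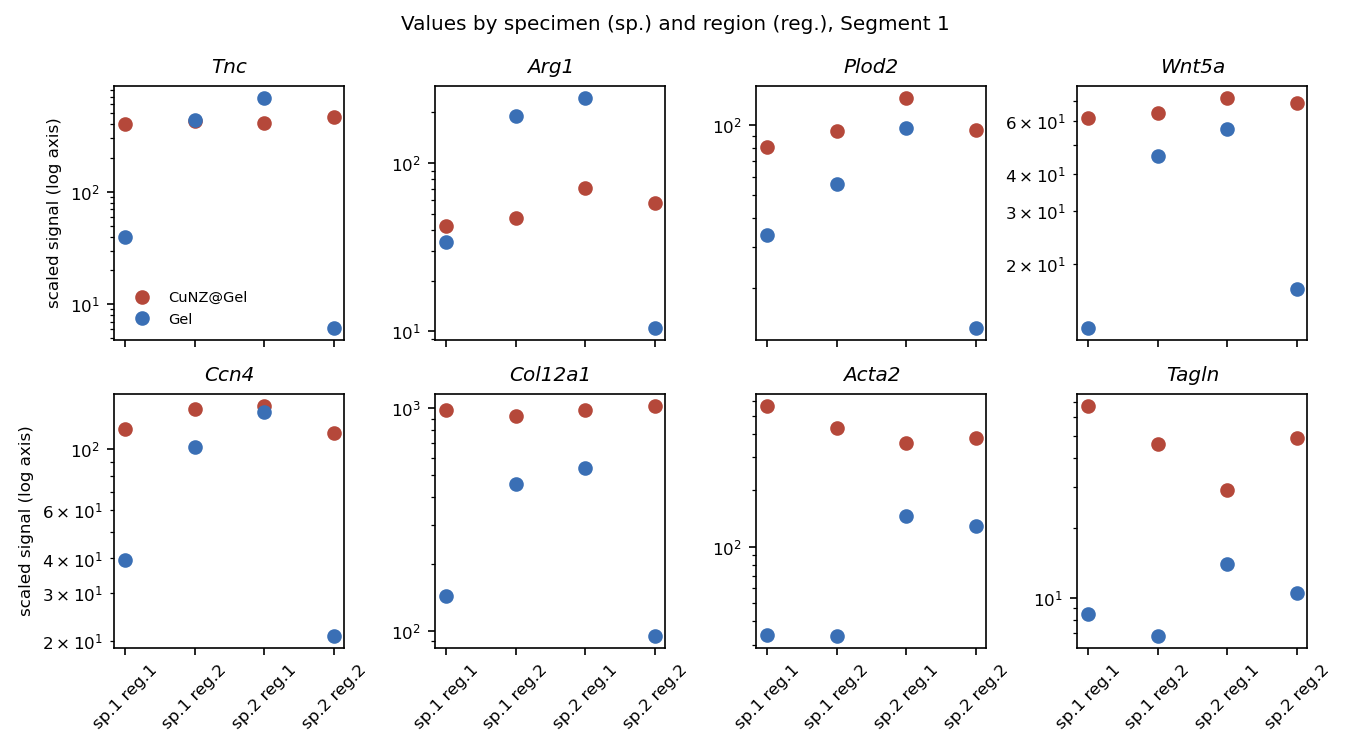
Scaled signal on a log axis for 8 genes in the 4 CuNZ@Gel (red) and 4 Gel (blue) areas of Segment 1, by specimen and region, where areas side by side share only a number. CuNZ@Gel values are close together for Tnc and Col12a1, while Gel values of Tnc lie between 6.13 and 690.2.

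In Segment 2 the same comparison called 121 targets (0.653%), 94 higher and 27 lower. Segment 2 areas were shallower, at 86386 to 688520 counts, and come from the same specimens and regions, so they are no separate replicates. Of 18522 targets, 0 passed limma's test of the difference between the segments (0%), with 985 (5.32%) at an unadjusted p below 0.05 and a smallest adjusted p of 0.757. Under quantile normalization 1 passed, Bgn, named for that count. Tnn had log2 changes of 5.25 in Segment 1 and 4.62 in Segment 2, C1qb -4.87 and -4.60, and Mt2 -2.58 and -2.78. Tagln changed by 2.15 in Segment 1 and 2.63 in Segment 2, and Col12a1 by 2.02 and 2.37. Zbtb16 had -1.97 in Segment 1 and -0.74 in Segment 2, with an unadjusted interaction p of 0.00429 and an adjusted p of 0.874. Plod2 (1.28 and 2.11), Mdk (1.24 and 1.99) and Wnt5a (1.26 and 2.04) differed in the other way, likewise only before adjustment (unadjusted p = 0.0180, 0.0124 and 0.0118).

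**Figure D5:**
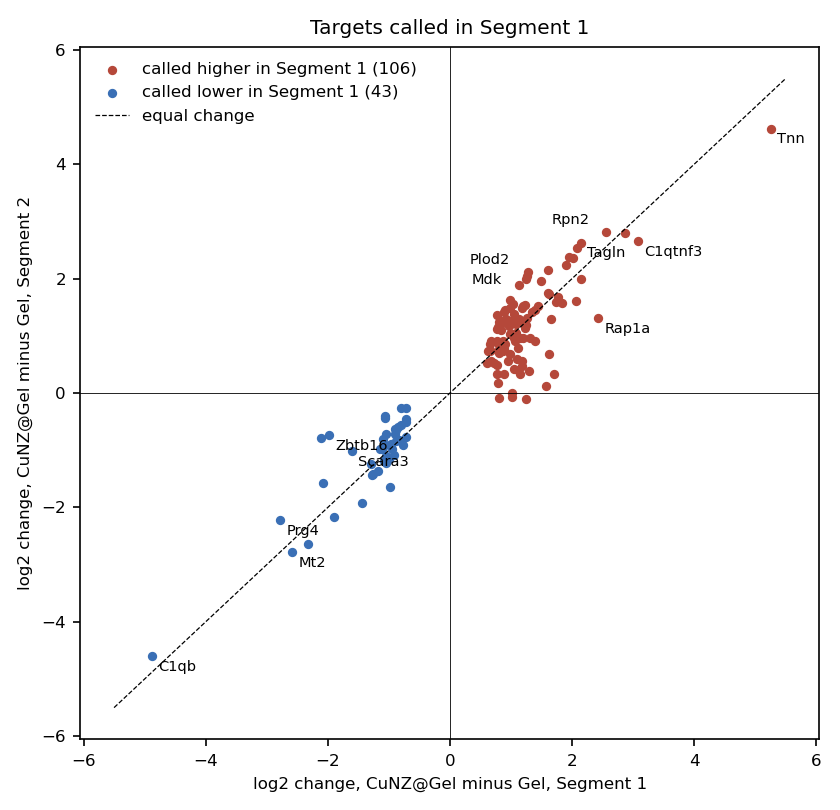
Log2 change, CuNZ@Gel minus Gel, in Segment 1 (x axis) and Segment 2 (y axis) for the 106 targets called higher (red) and 43 called lower (blue) in Segment 1, with a dashed line of equal change. Tnn lies at 5.25 and 4.62, C1qb at -4.87 and -4.60, and Zbtb16, at -1.97 and -0.74, lies farther from the line than Mt2.

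Summed endothelial, pericyte and mural, adipocyte, macrophage and fibroblast markers overlapped between the gels. The sums of the contractile and myofibroblast list given above, which include Acta2 and Postn, did not. Summed endothelial markers were 402 to 513 in CuNZ@Gel areas and 384 to 729 in Gel areas, and summed pericyte and mural markers 409 to 554 and 434 to 727. Adipocyte markers summed to 207 to 292 in CuNZ@Gel and 147 to 805 in Gel, with 2 of 14 above background. Summed macrophage markers were 2663 to 3197 in CuNZ@Gel areas, against 3068 to 3907 in Gel areas, and summed fibroblast markers 3774 to 3998 in CuNZ@Gel areas, against 2624 to 4099 in Gel areas. Gene by gene, 1 of the 9 endothelial markers above background had a positive log2 change, with a median of -0.39. So did 2 of 6 pericyte and mural markers (median -0.05), 0 of 2 adipocyte (-0.36), 3 of 9 macrophage (-0.03) and 8 of 11 fibroblast markers (0.13). Over all targets above background 51.2% were positive. The part of these markers in the gene changes above was not tested.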

How the data were processed

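Per the labels' protocols, fixed and embedded sections were hybridised with GeoMx RNA probes, and areas with positive immunofluorescence were collected and sequenced. The authors deposited 1 signal value per target and area for 19963 targets, 1 of them a negative probe. How tags were counted and scaled is not given in the sources used here. Deposited signal values have a 75th percentile of 12.3 in 23 of 24 areas. Between 99.905% and 99.995% of values in an area were whole multiples of its lowest value, within 0.01 of a count, so counts could be recovered. No value was 0. Symbols follow mouse naming, and 16665 of 19962 equal a rat symbol (GRCr8), or 17074 with synonyms. A synonym shared by several genes was used only where 1 gene symbol starts with it.

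Values were analysed as log2(signal + 1), so folds of dim targets come out too small. A target was kept (18522 were) if it exceeded the negative probe in 4 or more of the 12 Segment 1 areas. Both areas of a specimen were averaged. The 6 Segment 1 specimens, Sham included to share the spread, were fitted with limma 3.58.1 under R 4.3.3, using lmFit and then eBayes with its trend and robust options. Group levels are means of specimen levels (2 to the mean log2, minus 1) with the SD over 2 specimens. The p-values were adjusted by Benjamini-Hochberg across the 18522 targets, and 0.05 was the threshold. The prior of the spread had a median of 57.0 degrees of freedom, while a target itself had 3. The segment term took 12 specimen and segment means with the specimen as a block. On recovered counts summed per specimen, edgeR 4.0.16 called 141 targets and DESeq2 1.42.0 called 52. The fits were also run on simulated data with the same spread in every group. The Gel areas here varied more than that, so this run does not vouch for the calls. Specimen numbers were not taken as pairs.

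Named genes were the 12 largest rises and 12 largest falls among called targets above background in every area of the higher group, with specimens apart, up to 4 called members of each of 42 lists (672 genes) by p, and 27 further genes. Areas, lists and the named genes were chosen with earlier results of these data known. Alternatives covered the scaling, filter, pseudocount, averaging, test, unit of analysis, specimen number as a block, regions, and the omission of each specimen and, added after seeing the data, of each Sham specimen and each area.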

Additional observations from a re-analysis of the deposited data

Results flagged for a closer look

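Among the 60 named genes, each tested in both gels (120 groups of 4 areas), 7 groups held an area far from the other 3 by Dixon's test, a number near the 1 in 20 that chance gives. Mt2 stood at 4130.2 in Gel specimen 1 region 1, against 2298 to 2396 in the other Gel areas, and 2310022A10Rik was at 23.6 in the same area, against 17.8 to 18.4. In Gel specimen 2 region 2, Zbtb16 was at 79.1, against 37.6 to 40.9 in the other Gel areas, Rasd1 was at 29.4, against 93.3 to 109, and Gja5 was at 12.3, against 40.2 to 43.6. In CuNZ@Gel, Trf was at 102 in specimen 1 region 2, against 72.8 to 75.5 in the other areas, and Cd68 was at 228 in specimen 2 region 2, against 175 to 182. The cause was not tested for any of these.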

How the results depend on the processing

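With 106 targets called higher and 43 lower, limma without trend and robust called 10 higher and 5 lower, DESeq2 29 and 23, and edgeR 78 and 63, so that 71.1% of calls were higher in limma, 55.3% in edgeR and 55.8% in DESeq2. Region 1 areas alone gave 72 higher and 27 lower and region 2 areas alone 35 and 16. Quantile normalization gave 122 and 64 (65.6% higher), centring on the median 116 and 49, and areas as samples 71 and 36. Leaving out 1 specimen or 1 area gave 45 to 193 higher and 20 to 62 lower. The lowest counts came without CuNZ@Gel specimen 2 (45 higher and 20 lower), and 193 came without Gel specimen 2. Without CuNZ@Gel specimen 1 there were 66 higher, without Gel specimen 1 region 1 there were 61 higher, and without Gel specimen 2 region 1 there were 23 lower. These fits hold fewer samples, and the cause of the changed counts was not tested. With the specimen number as a replicate block, 98 were higher and 40 lower, and 24 of the 149 calls were lost, those of Efemp1, Clu, Tgfbr1 and Slc16a3 among the named genes. That block gave calls to Col1a1 (adjusted p = 7.6e-06), Col3a1 (0.0422), Postn (3.7e-08) and Bgn (5.0e-04). The labels do not say what a shared specimen number means, and deviations of same-numbered specimens correlated at r = -0.0966 between CuNZ@Gel and Gel. Of the 46 named calls, areas as samples with the specimen as a random block ended 18 (Adam12, Ccn4, Clu, Col12a1, Col5a1, Col8a1, Efemp1, Fn1, Gja5, Lox, Loxl2, Mfap5, Plod2, Rasd1, Slc16a3, Thbs2, Tnc and Wnt5a), region 1 areas alone 16, region 2 areas alone 20, edgeR 7 and DESeq2 15. In the fit with areas as samples, the correlation estimated between areas of a specimen was -0.0099, so the areas counted almost as independent samples there. The interaction with segment gave 0 calls under 3 of 4 settings and 1 under quantile normalization. Of the named genes' results under the alternatives, 1445 kept their side of the threshold, 216 lost it, 18 gained it and 0 reversed. Of the 149 called targets 9 were called under all 28 alternatives. Shallow areas have a higher floor, since 1 count is worth more there, and 13 of the 149 called targets were not above background.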

Other observations

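Further actin cytoskeleton genes were called higher in CuNZ@Gel, and so were the single receptor genes Itga11 and Fzd2. The families counted here were put together after their values were seen, so no test of a family was made, and the adjusted p-values are limma's over all targets. Of 36 actin cross-linking and contractile targets tested, 9 were called higher and 0 lower, against 0.572% and 0.232% over all targets. Of the 9, 3 (Tagln, Tpm1 and Cald1) are also on the contractile list. Palld, which encodes the actin bundler palladin, read 73.2, 70.5, 57.5 and 64.4 in CuNZ@Gel areas, against 16.04, 19.8, 35.1 and 17.2 in Gel areas, a log2 change of 1.61 (adjusted p = 5.3e-09). Actn4, an alpha-actinin gene, read 179, 164, 168 and 159 in CuNZ@Gel and 59.4, 79.7, 109 and 79.7 in Gel (1.05, adjusted p = 4.5e-05). Each had all CuNZ@Gel areas above all Gel areas. Among 30 integrin chains tested, Itga11, a collagen receptor chain of myofibroblasts, was the sole call. It read 38.8, 30.7, 32.1 and 37.6 in CuNZ@Gel, 8.49, 5.45, 10.99 and 12.3 in Gel and 87.3, 136, 104 and 183 in Sham (1.84, adjusted p = 1.6e-09). Sox4, a transcription factor gene, read 138, 166, 160.4 and 174 in CuNZ@Gel and 32.1, 64.7, 64.3 and 53.3 in Gel (1.60, adjusted p = 7.2e-10), and Vgll3, a TEAD cofactor gene, 75.6, 65.6, 63.2 and 69.8 in CuNZ@Gel and 14.2, 13.6, 19.9 and 39.2 in Gel (1.74, adjusted p = 7.3e-06). Wnt4 (1.65) and Fzd2 (1.05), 1 of 9 Frizzled receptor genes tested, were called beside Wnt5a, and all their CuNZ@Gel areas were above their Gel areas. The calls of Vgll3 and Wnt4 were lost without Gel specimen 2 region 1, and that of Fzd2 without CuNZ@Gel specimen 2 or Gel specimen 1 region 2. Those of Palld, Actn4, Itga11, Sox4, Vgll3, Wnt4 and Fzd2 were lost under limma without its trend and robust options.

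Of 20 replication-type histone targets tested, 0 were called higher and 4 lower (H1f1, H2ac10, H2bc8 and H3c1), against 0.572% and 0.232% over all targets. H3c1 read 325, 191, 326 and 215 in CuNZ@Gel areas, against 582, 519, 647 and 405 in Gel areas (-1.04, adjusted p = 0.00171), and H1f1 35.6, 28.8, 41.5 and 29.1 in CuNZ@Gel and 96.2, 64.7, 87.1 and 43.5 in Gel (-1.04, adjusted p = 2.4e-04). Histone genes are near-identical copies, so a probe may read several of them. The 17 proliferation genes tested had 0 calls and a median log2 change of -0.29, or -0.44 over the 6 above background. Of 28 alternatives, 12 ended the H3c1 call, among them the omission of any 1 of the 4 specimens. For H1f1 4 did so, among them the omission of CuNZ@Gel specimen 1 and of Gel specimen 2 region 1. Il1rn, which encodes the interleukin-1 receptor antagonist, was lower in CuNZ@Gel (-0.92, adjusted p = 0.0114), at 15.5, 31.3, 28.3 and 29.9 in CuNZ@Gel areas and 58.5, 71.5, 45.7 and 30.05 in Gel areas, which overlapped. The Il1rn call was lost under 13 of 28 alternatives.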
